A study of Mus musculus with 12 samples.

Results

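The transcripts described here belong to the Bcl2 family, whose proteins set whether a cell survives or dies at the mitochondrion. The 10 genes were taken by symbol from the 23420 rows of the deposited count table, and all 10 were found. They are 5 pro-survival genes (Bcl2, Bcl2l1, Mcl1, Bcl2a1b and Bcl2a1d), the pore-forming effectors Bax and Bak1, and 3 BH3-only genes (Bid, Bcl2l11 and Bbc3). Of these, 8 had enough counts for the test across genes, and Bcl2a1b and Bcl2a1d did not.

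RNA was sequenced from monocytic myeloid-derived suppressor cells (M-MDSCs), immature monocyte-like cells sorted from mouse bone marrow as CD11b+Ly6G-Ly6Chi. The tibia marrow came from male C57BL/6JNIA mice, 6 of them aged 24 months (aged) and 6 aged 6 months (young), with 1 library per mouse. The labels name no engineered allele and no agent in either group. The comparison asks which transcripts of these cells differ between aged and young mice.

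Pro-survival members of the family hold the effectors Bax and Bak in check, and the effectors otherwise open the outer mitochondrial membrane and release cytochrome c. BH3-only proteins are the sensors: they carry stress signals to the mitochondrion, where they bind pro-survival members or activate the effectors directly. Myeloid cells turn over quickly, and Mcl-1, a protein that is made and degraded rapidly, is well known for keeping neutrophils and their precursors alive.

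Libraries of aged mice held 8737941 to 16300374 counts and those of young mice 4613239 to 9079237, so that 3 counts of a gene correspond to 0.188 to 0.642 CPM (counts scaled to 1000000 in a library). Totals were corrected with TMM factors for this scaling. The labelled cell type was compared with its markers. A list of 8 monocyte genes summed to 6908 to 9002 CPM in aged and 7831 to 8795 CPM in young mice. Most of that sum was Chil3 (means 4356 and 4281 CPM in aged and young mice) and Itgam (2891 and 3371 CPM), while Ccr2 was at 31.2 and 37.1 CPM and Csf1r at 141 and 134 CPM. Members of the list were called in both directions, Ly6c2 (log2 fold change 0.54) and Cd14 (1.11) higher and Itgam (-0.22) lower in aged mice. A list of 10 neutrophil genes, such as S100a8 and Ngp, summed to 131800 to 155000 CPM in aged and 84130 to 130400 CPM in young mice, and the ranges did not overlap. In every mouse this sum was above that of the monocyte genes, although the sort was for Ly6G- cells. Of this list, S100a8, S100a9, Cxcr2 and Retnlg also belong to the gene set by which the study scores M-MDSCs. The other 6 genes (Ltf, Camp, Ngp, Mmp8, Mmp9 and Csf3r) still summed to 71830 to 88620 CPM in aged and 58650 to 78490 CPM in young mice, above the monocyte sum in all 12 mice but with ages that overlapped. The source of these transcripts was not tested. By edgeR 5 of the 10 neutrophil genes, 3 of them in that M-MDSC set, and 9 of the 9 tested resident macrophage genes were called higher in aged mice, and none of either list lower, where 22.4% of all genes tested were called higher and 23.0% lower. Young mice 5 and 6 stood apart from the other young mice. Their Mki67 levels, a proliferation marker, were 673 and 597 CPM against 229 to 318 CPM in the other 4, and their neutrophil sums were the lowest of all (84130 and 85120 CPM). Sums of 10 resident macrophage genes ranged from 151 to 1246 CPM in the aged group, highest in mouse 1, against 105 to 137 CPM in the young group. The B cell, T and NK cell, dendritic cell and erythroid lists each stayed at or below 37.9 CPM in every mouse. Within that low range the dendritic cell sum was below the young mice in every aged mouse (8.21 to 13.23 against 13.24 to 20.8 CPM), with Clec9a called lower (log2 fold change -2.45, edgeR adjusted p 2.89e-05), and the erythroid sum was above the young mice in every aged mouse (0.641 to 7.68 against 0.102 to 0.428 CPM). The B cell and the T and NK cell sums overlapped between ages, and the plasma cell list, most of it Xbp1, reached 233 CPM. In bulk RNA of this kind, a change in the share of a cell type and a change in RNA per cell cannot be told apart.

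The copies of Bcl2a1 are shown first, because their sequences bear on what could be counted. Mice carry several near-identical copies of this gene on chromosome 9. The first 150 bases of the 519-base coding sequence are given below for 3 copies, read from GENCODE vM21 transcripts (GRCm38, the assembly of mm10) in the coding direction, 5′ to 3′. Capitals mark the 7 positions of this stretch at which the copies are not all alike.
Bcl2a1a: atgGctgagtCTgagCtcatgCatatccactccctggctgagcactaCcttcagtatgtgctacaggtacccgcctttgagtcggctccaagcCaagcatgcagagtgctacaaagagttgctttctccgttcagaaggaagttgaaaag
Bcl2a1b: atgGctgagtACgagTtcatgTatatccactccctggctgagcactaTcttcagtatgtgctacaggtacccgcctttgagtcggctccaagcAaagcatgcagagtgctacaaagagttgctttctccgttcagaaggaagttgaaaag
Bcl2a1d: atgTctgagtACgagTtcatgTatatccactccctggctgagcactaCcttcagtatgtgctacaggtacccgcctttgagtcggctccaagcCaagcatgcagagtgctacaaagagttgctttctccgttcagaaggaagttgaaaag
Over the whole coding sequence, Bcl2a1b and Bcl2a1d differed at 6 bases (98.8% identity), Bcl2a1a and Bcl2a1d at 7 (98.7%) and Bcl2a1a and Bcl2a1b at 11 (97.9%). In the longest transcript of each copy, 56.8% of the 100-base windows of Bcl2a1b, 54.7% of those of Bcl2a1d and 43.5% of those of Bcl2a1a also occurred in another gene. The deposited counts required a mapping quality of at least 60, so fragments that fit several copies equally well would not have been counted. For 7 of the other 8 members no such window was found in another gene. Bax had 9.49%, all shared with Gm45808, a gene model that overlaps Bax on the same strand in GENCODE. No other gene of the annotation used for counting overlapped an exon of any member.

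Among the 8 members tested, 3 were higher and 1 was lower in aged mice. Bak1, Bax and Bcl2l1 rose, Bcl2 fell, and the 3 BH3-only genes and Mcl1 did not pass the test. The test was edgeR's quasi-likelihood test with Benjamini-Hochberg adjustment over 9742 genes, called at an adjusted p under 0.05. By the same rule 45.4% of all genes tested were called, 22.4% higher and 23.0% lower, so that 4 calls among 8 members is near the background. The CPM of the aged and young mice did not overlap for 3 members (Bcl2, Bcl2l1 and Bak1), against 21.8% of all genes tested. The median log2 fold change was 0.15 over the 8 members and 0.01 over all genes.

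**Figure D1:**
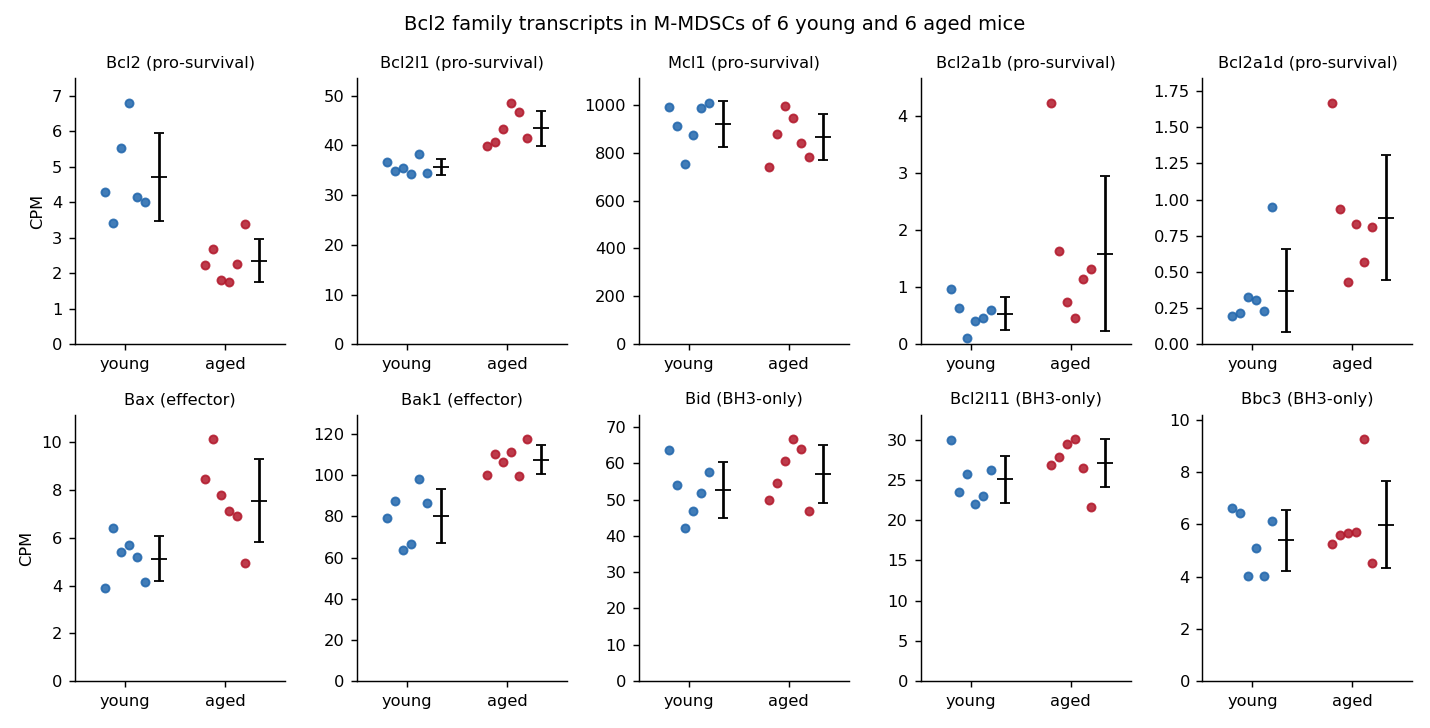
CPM of each of the 10 members (vertical axes, starting at 0, scaled per gene) in 6 young mice (blue) and 6 aged mice (red), 1 point per mouse, with the mean and SD of each age in black. Bcl2 shows all aged mice (1.75 to 3.38 CPM) below all young mice, and Bcl2l1 and Bak1 show all aged mice above all young mice.

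Bcl2, the founding pro-survival member (chr1:106538179-106714290, mm10, minus strand, 2 exons with 7737 exon bases in all), ranged from 1.75 to 3.38 CPM in aged mice with a median of 2.25. In young mice it ranged from 3.42 to 6.81 CPM with a median of 4.22. Every aged mouse was below every young mouse, though aged mouse 7 (3.38 CPM, 54 counts) nearly met young mouse 2 (3.42 CPM, 16 counts). Means were 2.35 ± 0.605 CPM in aged and 4.71 ± 1.24 CPM in young mice (SD, n = 6 each). The log2 fold change was -1.001 (SE 0.214, 95% interval -1.46 to -0.55), with an adjusted p of 0.00184 in edgeR. Young mice 5 and 6 had the highest levels, 5.53 and 6.81 CPM. Without them the log2 fold change was -0.76 (edgeR adjusted p 0.0207). Bcl2 is also a long transcript, and long genes as a whole were lower in aged mice: across the 9742 genes, log2 fold change and exon length had a Spearman correlation of -0.483. With a correction for gene length in each library, Bcl2 fell by 0.64 on the log2 scale and stayed called (edgeR adjusted p 0.0188).

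Bcl2l1, which encodes Bcl-xL (chr2:152780668-152831682, minus strand, 3 exons, 2371 exon bases), ranged from 40.0 to 48.6 CPM in aged mice with a median of 42.4. Young mice lay in a narrow band from 34.3 to 38.2 CPM with a median of 35.2. No aged mouse fell into that band. The rise was small, 0.29 on the log2 scale (SE 0.0705, edgeR adjusted p 0.00447), or 1.22-fold. It was 0.24 with the length correction (adjusted p 0.0243) and 0.25 without young mice 5 and 6 (adjusted p 0.0237), both by edgeR.

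Mcl1 (chr3:95658721-95663178, plus strand, 3 exons, 3487 exon bases) was by far the most abundant member in both ages. Aged mice had 741 to 997 CPM with a median of 859, and young mice 753 to 1009 CPM with a median of 947. The ages overlapped almost fully. The log2 fold change of -0.09 (SE 0.0903) had a 95% interval from -0.28 to 0.10, and the edgeR adjusted p was 0.43. Young mouse 5 was the lowest of the young mice (753 CPM). Without young mice 5 and 6 the log2 fold change was -0.19 and still not called (edgeR adjusted p 0.0772).

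Bcl2a1b and Bcl2a1d encode A1, a pro-survival protein of blood cells, and were close to the limit of detection. Bcl2a1b (chr9:89199273-89207838, plus strand, 2 exons) had 38, 14, 7, 5, 12 and 21 counts in aged mice 1, 2, 4, 5, 6 and 7, and 5, 3, 1, 4, 4 and 5 counts in young mice 1, 2, 5, 6, 9 and 10. Bcl2a1d (chr9:88723288-88731850, minus strand, 2 exons) had 15, 8, 4, 9, 6 and 13 counts in the same aged mice, and 1, 1, 3, 3, 2 and 8 counts in the same young mice. Both genes were highest in aged mouse 1, and for both the ages overlapped.

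In CPM, Bcl2a1b averaged 1.59 ± 1.36 in aged and 0.531 ± 0.287 in young mice (SD, n = 6 each; exact two-sided permutation test, p = 0.026). Bcl2a1d averaged 0.873 ± 0.433 and 0.369 ± 0.287 CPM (SD, n = 6 each; exact two-sided permutation test, p = 0.0303). The smallest p this design allows is 0.00217. Pooled over mice, the ratio of aged to young was 3.15 for Bcl2a1b (95% counting interval 1.97 to 5.26) and 2.18 for Bcl2a1d (1.26 to 3.95); these intervals cover counting error only. For neither gene did the permutation p stay under 0.05 whichever mouse was left out. With 1 mouse left out at a time, the exact permutation p ranged from 0.00433 to 0.0823 for Bcl2a1b, where it passed 0.05 without aged mouse 1 or without young mouse 2, 5, 6, 9 or 10, and from 0.00649 to 0.0649 for Bcl2a1d, where it did so without aged mouse 1 or without young mouse 1, 2, 5, 6 or 9. Without young mice 5 and 6 together, the exact permutation p was 0.209 for Bcl2a1b and 0.105 for Bcl2a1d. Leaving mice out makes the groups unequal, which by itself changes this p, so it cannot show dependence on single young mice. Without single young mice the difference in mean CPM was 0.962 to 1.14 for Bcl2a1b (1.055 with all mice). For Bcl2a1d it was 0.468 to 0.620 (0.504 with all mice). Without aged mouse 1 the difference in mean CPM dropped to 0.526 for Bcl2a1b, from 1.055. Aged mouse 1 had the highest level of both genes and also of the resident macrophage markers (C1qa 84.6 CPM, against 5.17 to 29.3 CPM in the other aged mice and 1.76 to 3.85 CPM in young mice). The part of those cells in the Bcl2a1 counts was not tested. In the edgeR fit with no filter on low counts, Bcl2a1b had a log2 fold change of 1.62 (adjusted p 0.027) and Bcl2a1d 1.13 (adjusted p 0.0827).

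Because the copies are so alike, the counts of Bcl2a1a, Bcl2a1b and Bcl2a1d were also summed, a choice made after their values were seen. The sum was 65, 34, 18, 21, 27 and 38 counts in aged mice 1, 2, 4, 5, 6 and 7, and 9, 6, 8, 9, 7 and 15 counts in young mice 1, 2, 5, 6, 9 and 10. In CPM the aged mice (1.92 to 7.24) lay above the young mice (0.808 to 1.77). Fitted with the whole table, the summed row rose by 1.45 on the log2 scale (SE 0.374, edgeR adjusted p 0.00601). Leaving out any single mouse gave 1.07 to 1.61 with edgeR adjusted p-values of 0.00471 to 0.0164, and 1.07 was the value without aged mouse 1. Without young mice 5 and 6 the log2 fold change was 1.22 (edgeR adjusted p 0.0496), and the exact permutation p of mean CPM went from 0.00217 to 0.081. In the CPM given above, the aged mice still lay above the remaining young mice. The 2 permutation p-values are not directly comparable, since the groups were unequal without this pair.

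Both effectors were called higher in aged mice. Bak1, present on the outer mitochondrial membrane in healthy cells (chr17:27019812-27028626, minus strand, 6 exons, 2002 exon bases), ranged from 99.6 to 117 CPM in aged mice with a median of 108. Young mice ranged from 63.6 to 98.1 CPM with a median of 82.7. Aged and young mice did not overlap, but aged mouse 6 and young mouse 9 were close, at 99.6 and 98.1 CPM. The log2 fold change was 0.43 (SE 0.0974, 95% interval 0.22 to 0.63; edgeR adjusted p 0.0028). Young mice 5 and 6 had the lowest levels, 63.6 and 66.6 CPM, and without them the log2 fold change was 0.27 (edgeR adjusted p 0.0111). With the length correction it was 0.33 (edgeR adjusted p 0.0195).

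Bax, the effector that moves from the cytosol to mitochondria on activation (chr7:45461695-45466898, minus strand, 6 exons, 869 exon bases), was much lower in level than Bak1. It ranged from 4.94 to 10.1 CPM in aged mice with a median of 7.45, and from 3.90 to 6.42 CPM in young mice with a median of 5.31. Aged mouse 7 lay among the young mice, and the other 5 aged mice were above them all. The log2 fold change was 0.55 (SE 0.177, 95% interval 0.17 to 0.92; edgeR adjusted p 0.0201). This call depended on the processing. Bax is a short transcript, against a median of 2890 exon bases over the genes tested, and with the length correction its log2 fold change was 0.15 and not called (edgeR adjusted p 0.526). Its edgeR adjusted p was 0.0597 with library totals alone in place of TMM factors (log2 fold change 0.46) and 0.0759 with a correction for GC content (0.38).

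None of the 3 BH3-only members was called by edgeR, DESeq2 or limma-voom, and 0 of the 3 had an unadjusted p under 0.05 in any of these tests. Bid, which caspase-8 cleaves to link death receptors to mitochondria (chr6:120893119-120916820, minus strand, 6 exons, 1891 exon bases), had 46.9 to 66.6 CPM in aged mice (median 57.6) and 42.1 to 63.6 CPM in young mice (median 52.9). Its log2 fold change was 0.12 (SE 0.11, 95% interval -0.11 to 0.35), and -0.01 without young mice 5 and 6. Bcl2l11, which encodes the broad activator Bim (chr2:128126038-128162547, plus strand, 4 exons, 5037 exon bases), had 21.7 to 30.1 CPM in aged mice (median 27.4) and 22.1 to 30.04 CPM in young mice (median 24.7). Its log2 fold change was 0.11 (SE 0.0985, 95% interval -0.10 to 0.32). In the fit corrected for length, the change in Bcl2l11 was 0.30 and passed the threshold (edgeR adjusted p 0.0476). Bbc3, which encodes Puma, a target of p53 (chr7:16309583-16318334, plus strand, 4 exons, 1976 exon bases), had 4.504 to 9.26 CPM in aged mice (median 5.62) and 4.01 to 6.63 CPM in young mice (median 5.62). Aged mouse 6 alone (9.26 CPM) lay above the other mice. The log2 fold change of Bbc3 was 0.17 (SE 0.196, 95% interval -0.24 to 0.59), and 0.01 without aged mouse 6.

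**Figure D2:**
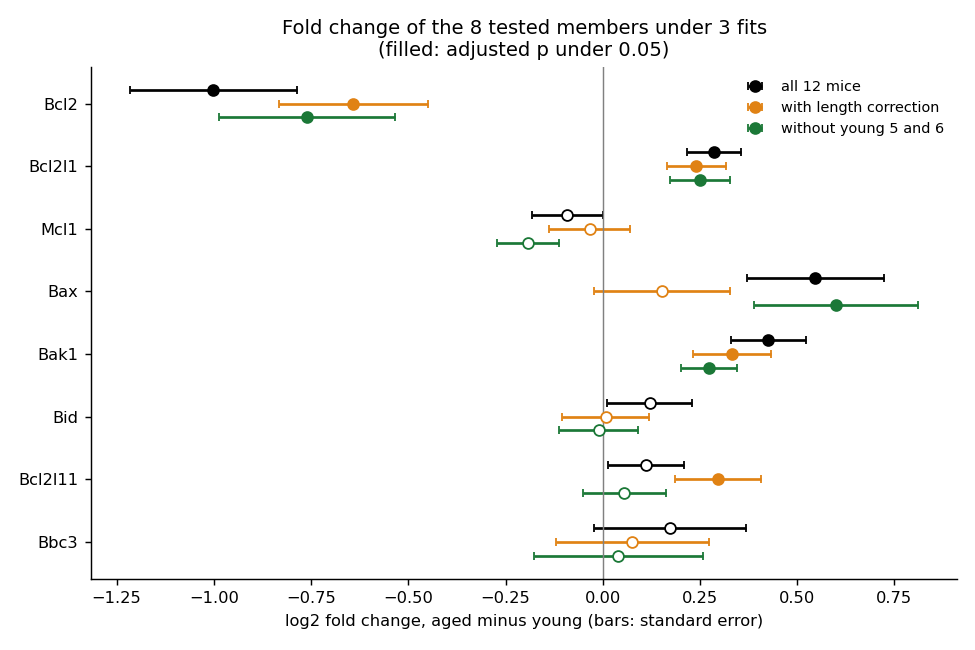
Log2 fold change (aged minus young, horizontal axis) of the 8 tested members with all 12 mice (black), with a correction for gene length (orange) and without young mice 5 and 6 (green). Bars are standard errors and filled points have an adjusted p under 0.05. Bcl2, Bcl2l1 and Bak1 are filled in all 3 fits, whereas Bax moves from 0.55 to 0.15 with the length correction and Bcl2l11 is filled only there.

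With the length correction, 4 of the 8 members were called, 3 higher (Bcl2l1, Bak1 and Bcl2l11) and 1 lower (Bcl2), against 33.4% of all genes tested. Without TMM factors, 3 members were called, and the median of all genes shifted to -0.08 on the log2 scale. The split of calls over all genes also moved with the scaling, from 2185 higher and 2240 lower to 1680 higher and 2767 lower. The directions of Bcl2, Bcl2l1 and Bak1 were the same under both scalings.

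Levels were then compared between members as CPM per kb of exon. In aged mice Mcl1 stood first at 248 ± 27.6, followed by Bak1 at 53.7 ± 3.46, Bid at 30.2 ± 4.19 and Bcl2l1 at 18.3 ± 1.48 CPM per kb (SD, n = 6 each), and the ranges of these 4 did not overlap. Bax (8.69 ± 1.99), Bcl2l11 (5.38 ± 0.592) and Bbc3 (3.03 ± 0.842 CPM per kb) followed, with neighbours overlapping. The copies Bcl2a1b (2.08 ± 1.78) and Bcl2a1d (1.097 ± 0.544 CPM per kb) overlapped each other, and Bcl2 came last at 0.304 ± 0.0782 CPM per kb, with every aged mouse below the lowest value of Bcl2a1d (0.537). In young mice the order was the same for the first 8 genes. There Bcl2, at 0.608 ± 0.161 CPM per kb, lay between Bcl2a1b (0.695 ± 0.376) and Bcl2a1d (0.464 ± 0.361), and the 3 ranges overlapped. Levels of these copies may be too low in both ages, since full exon length was used although fragments fitting several copies would not have been counted. Bak1 and Bid overlapped in young mice (31.8 to 49.0 and 22.3 to 33.6 CPM per kb) but not in aged mice (49.8 to 58.7 and 24.8 to 35.2).

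**Figure D3:**
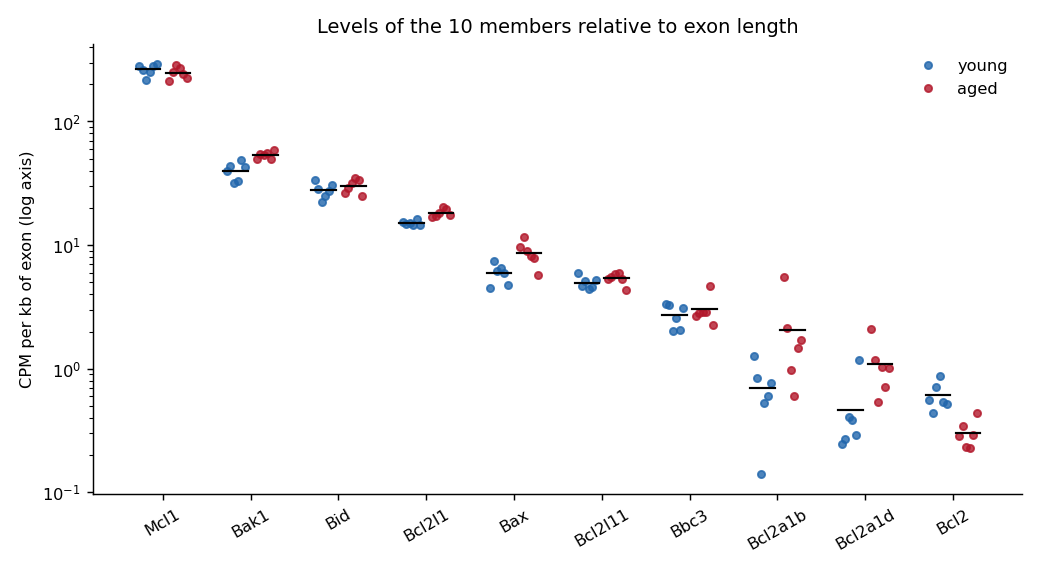
Level of each member in CPM per kb of exon (vertical log axis) in young (blue) and aged (red) mice, 1 point per mouse, with the mean of each age as a black bar. Mcl1 stands above 212 CPM per kb in every mouse, while Bcl2 is the lowest member in aged mice at 0.304 CPM per kb on average.

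Ratios within a library do not depend on how libraries are scaled, and are given as a description. Within the sum of the 5 pro-survival members per kb, Mcl1 made up 91.8% ± 1.30 in aged and 94.0% ± 0.507 in young mice (SD, n = 6 each). Bcl2l1 made up 6.83% ± 0.577 and 5.40% ± 0.573. This sum leaves out Bcl2a1a and Bcl2l2, and the shares of Bcl2a1b and Bcl2a1d may be too low for want of fragments that fit several copies. The share of Bcl2 was 0.115% ± 0.0377 in aged and 0.222% ± 0.076 in young mice. For all 5 pro-survival members the shares overlapped between ages. The count ratio of Mcl1 to Bcl2l11, the transcripts of a pro-survival protein and one of its BH3-only partners, ranged from 27.5 to 36.0 in aged and from 29.2 to 42.9 in young mice. Bcl2l1 to Bax ranged from 4.02 to 8.39 and from 5.43 to 9.40. Bcl2a1b to Bcl2a1d ranged from 0.556 to 2.53 and from 0.333 to 5, where a young mouse can hold a single count. A further ratio, chosen after its values were seen, was that of Bcl2 to Bcl2l1: it was 0.0361 to 0.0815 in aged and 0.0982 to 0.199 in young mice, with no overlap. This separation follows from the levels, since every aged mouse was lower in Bcl2 and higher in Bcl2l1. The genes differ in length (7737 and 2371 exon bases), and the ratio was not corrected for it.

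Members were next set beside Mki67, since young mice 5 and 6 differed from the other young mice in Mki67 and Top2a. Top2a was at 390 and 416 CPM in this pair and at 257 to 300 CPM in the other young mice. Both are long transcripts (10075 and 5217 exon bases), and these levels were not corrected for length. Mki67 itself was 63.4 to 173 CPM in aged and 229 to 673 CPM in young mice. Aged mouse 7, with the highest Mki67 of the aged mice (173 CPM), also had their highest Bcl2 (3.38 CPM). Of the 6 proliferation genes listed, 2 were called lower in aged mice (Mki67 and Top2a), near the 23.0% of all genes, and none higher, and Cdk1, Ccnb1, Birc5 and Ube2c did not pass the test. In young mice 5 and 6, Bcl2 was highest while Bak1 and Bid (42.1 and 46.8 CPM) were lowest among young mice. Bcl2, Bcl2l1, Bax and Bak1 stayed called without both mice (Bax at 0.60, edgeR adjusted p 0.0433), where 32% of all genes were called. The remaining young mice, at 229 to 318 CPM of Mki67, were still above every aged mouse, so that fit does not address dividing cells. Whether the share of dividing cells had a part in these values was not tested.

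**Figure D4:**
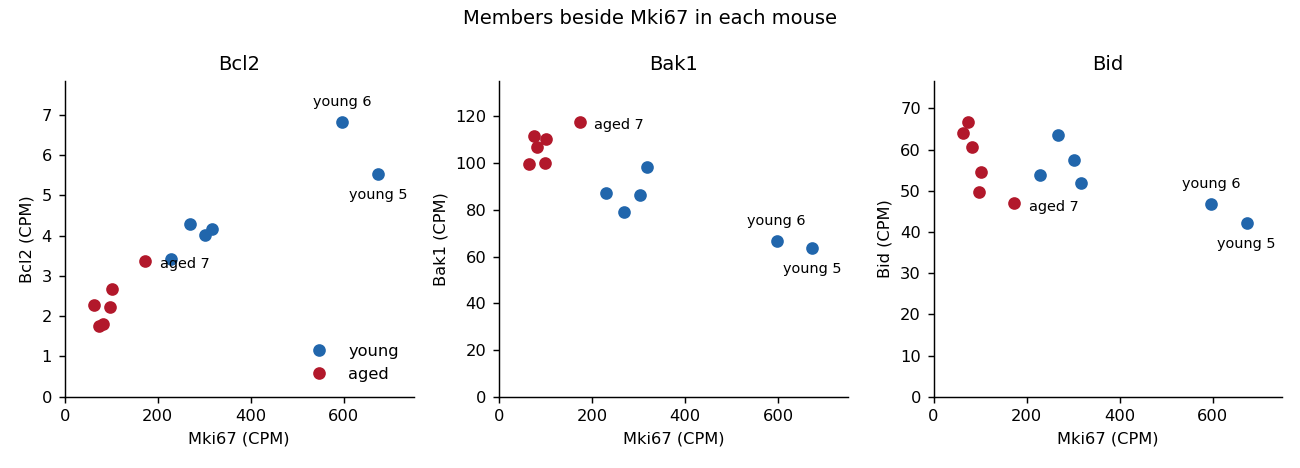
CPM of Bcl2, Bak1 and Bid (vertical axes, from 0) against CPM of Mki67 (horizontal axis) in each young (blue) and aged (red) mouse. Young mice 5 and 6, at 673 and 597 CPM of Mki67, have the highest Bcl2 and the lowest Bak1 of all mice.

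The genes whose levels followed those of a member most closely across the 12 libraries were found after the mean of each age had been removed, among 9741 genes. For Bcl2 they were Mlkl, Ndc80 and Brip1 (Pearson's r on log2 CPM 0.943, 0.942 and 0.938). For Bak1 they were Ndufv3 (0.941), Anxa5 (0.934) and Aldh2 (0.932), for Bcl2l1 Zbtb22 (0.91), Rmnd5b (0.88) and Mocos (0.864), and for Bax Gm6297 (0.858), Usp20 (0.837) and 5430421N21Rik (0.819). These are descriptions, since all points share libraries and their depth. Within the 6 aged and the 6 young mice taken alone, r with Bcl2 was 0.907 to 0.968 and 0.979 to 0.982 for its 3 genes, and r with Bak1 was 0.526 to 0.953 and 0.932 to 0.987. For Bcl2l1 it was 0.933 to 0.992 in aged but 0.407 (Mocos), 0.703 (Zbtb22) and 0.825 (Rmnd5b) in young mice, and for Bax 0.831 to 0.872 and 0.81 to 0.915. Among the members themselves, the highest such r was that of Bid with Mcl1 (0.811) and the lowest that of Bcl2 with Bid (-0.713).

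The rest of the pathway was described from 7 lists, 65 genes in all. Of the 50 tested, 19 were called (38%, against 45.4% of all genes), 10 higher and 9 lower, and the median log2 fold change was -0.0048, beside 0.0062 for all genes. After correction for length 15 were called, 11 higher and 4 lower, where 33.4% of all genes were. Of these 15, 8 were also among the 19 and 7 were not. Without young mice 5 and 6 it was 14, 5 higher and 9 lower, where 32.0% of all genes were, and 13 of the 14 were among the 19.

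In the list of other family members, 5 of 9 tested rose and none fell (median log2 fold change 0.22), or 55.6% called, against 45.4% of all genes in either direction and 22.4% higher. Pmaip1, which encodes Noxa, a BH3-only protein that binds Mcl-1, had the largest rise. It was 8.51 to 23.6 CPM in aged and 5.63 to 9.69 CPM in young mice, and only aged mouse 7 overlapped the young mice. Its log2 fold change was 1.18 (SE 0.215, edgeR adjusted p 6.63e-04), and 1.16 with the length correction (adjusted p 0.001). The count ratio of Mcl1 to Pmaip1, also chosen after its values were seen, was 32.6 to 91.9 in aged and 92.4 to 134 in young mice. Bad, a BH3-only gene controlled by growth factor signalling, had 19.8 to 26.9 CPM in aged and 11.9 to 17.9 CPM in young mice, without overlap, and rose by 0.53 (edgeR adjusted p 0.00183). Bnip3 (0.65) and Bnip3l (0.29), which act in the removal of mitochondria, and the autophagy gene Becn1 (0.22) were also called higher; none of the 3 stayed called without young mice 5 and 6, at 0.41, 0.15 and 0.22 (edgeR adjusted p 0.0971, 0.0514 and 0.0545). Becn1 also lost its call without aged mouse 4, 5 or 6 or young mouse 1 (edgeR adjusted p 0.0509 to 0.0603) and with the length correction (adjusted p 0.214). The same held without TMM factors (0.13, edgeR adjusted p 0.15) and with no filter on low counts. The largest fall in the list was that of Bmf (log2 fold change -0.28, edgeR adjusted p 0.425), which did not pass, nor did Bcl2l2, Bcl2l12 and Bcl2l13. Corrected for length, Bcl2l13 was called higher (0.34, edgeR adjusted p 0.00995). Hrk had no count in any mouse.

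Among the genes of the apoptosome and caspases, 2 of 13 rose and 1 fell (median 0.09), so that 23.1% were called, below the 45.4% of all genes. Casp6 was low in level (2.21 to 3.19 CPM in aged and 0.856 to 2.38 CPM in young mice) and rose by 0.84 (edgeR adjusted p 0.0147). Apaf1, the scaffold of the apoptosome, fell by 0.27 (adjusted p 0.00322). With the length correction neither was called (edgeR adjusted p 0.0723 for Casp6, at 0.65, and 0.856 for Apaf1, with 6557 exon bases, at 0.02). In this list 10 genes did not pass the test with all mice, and of these Casp2 was called higher with the length correction (0.21, edgeR adjusted p 0.0334). Casp2 was also called higher with upper quartile factors and without young mouse 2. Diablo was called higher with upper quartile factors, without aged mouse 7 and without young mouse 10.

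Of 8 inhibitor of apoptosis (IAP) genes tested, 3 fell and none rose (median -0.18), or 37.5% called, where 45.4% of all genes were called and 23.0% lower. Birc6, a giant ubiquitin ligase with 15768 exon bases, fell by 0.82 (edgeR adjusted p 9.38e-06), without overlap between ages (185 to 250 CPM in aged and 327 to 442 CPM in young mice). With the length correction its log2 fold change was -0.09 and not called (adjusted p 0.25). Birc3 (-0.23) and Naip6 (-0.66), the latter from a family of near-identical copies, were also called lower. Naip6 was at -0.35 with the length correction (edgeR adjusted p 0.208) and at -0.32 without young mice 5 and 6 (adjusted p 0.297), and it lost its call without aged mouse 2, 5 or 6 or young mouse 5 or 6 (adjusted p up to 0.0971). Birc3 stayed called with the length correction (-0.23, edgeR adjusted p 0.0368), and lost its call without aged mouse 2 (-0.20, adjusted p 0.0538) or young mouse 6 (-0.20, adjusted p 0.0505). Xiap (0.06), Birc2 (0.10), Birc5 (-0.12), Naip2 (-0.02) and Naip5 (-0.53, adjusted p 0.0582) were not called with all mice. Xiap was called higher with the length correction (0.35, edgeR adjusted p 0.00342). Naip5 was called lower without TMM factors (-0.64, edgeR adjusted p 0.0414) and without young mouse 1, 2, 9 or 10, but was at -0.05 without young mice 5 and 6 (adjusted p 0.726).

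In the death receptor pathway, 2 of 7 genes fell and none rose (median -0.02). This 28.6% is near the 23.0% of all genes called lower and below the 45.4% called in either direction. Cflar, which encodes the caspase-8 inhibitor c-FLIP, was 137 to 199 CPM in aged and 221 to 266 CPM in young mice and fell by 0.62 (edgeR adjusted p 1.08e-04). It stayed called with the length correction, at -0.25 (adjusted p 0.0169). Ripk1, a kinase of the TNF receptor complex, fell by 0.32 (adjusted p 0.00409), and by 0.18 with the length correction (adjusted p 0.071). Fas (0.01), Tnfrsf1a (-0.04), Fadd (-0.02), Tradd (0.25) and Cyld (-0.02) did not pass with all mice. The deubiquitinase Cyld was called higher once length was corrected for (0.38, edgeR adjusted p 0.00514).

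Of 5 genes that control the turnover of the Mcl-1 protein, 3 fell and none rose (median -0.38), beside 23.0% of all genes called lower and 45.4% in either direction. All 3 encode parts of ubiquitin ligases. Huwe1, which has 14624 exon bases, fell by 0.88 (edgeR adjusted p 4.37e-05), Btrc by 0.40 (adjusted p 0.0038) and Fbxw7 by 0.38 (adjusted p 0.00992). Corrected for length, Huwe1 was at -0.19 and still called (adjusted p 0.0451), while Btrc (-0.12, adjusted p 0.361) and Fbxw7 (-0.21, adjusted p 0.134) were not. The deubiquitinase Usp9x (-0.15) and the ligase March5 (0.09) did not pass with all mice, but both were called higher after the length correction, at 0.42 (edgeR adjusted p 0.00445) and 0.30 (adjusted p 0.019). The direction of Usp9x was therefore not settled: it was called lower without TMM factors (-0.23, edgeR adjusted p 0.0104) and without young mouse 6 (-0.19, adjusted p 0.0406) or young mice 5 and 6 (-0.25, adjusted p 0.00765).

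With all mice and no correction for length, none of the 5 tested regulators of BH3-only genes was called by edgeR with TMM factors, DESeq2 or limma-voom, with 0 unadjusted p-values under 0.05 in edgeR and DESeq2 and 1 in limma-voom (median -0.10). Trp53 was 12.7 to 20.5 CPM in aged and 14.95 to 20.2 CPM in young mice (log2 fold change 0.02). Foxo1 had the largest increase (0.29, SE 0.297), Ddit3 the largest decrease (-0.32, SE 0.171) and Mdm2 the smallest adjusted p (0.119); Foxo3 was at -0.10. Ddit3 was called lower with the length correction (-0.70, edgeR adjusted p 0.00721), and Mdm2 was called lower without TMM factors (-0.205, adjusted p 0.00807). All 3 outer membrane channels rose (median 0.40), beside 22.4% of all genes called higher. These were Vdac1 (0.31, edgeR adjusted p 0.00224), Vdac2 (0.45, adjusted p 8.05e-04) and Vdac3 (0.40, adjusted p 0.0112). Only Vdac2, known to bind Bak, stayed called with the length correction (0.29, adjusted p 0.0138), against 0.0604 for Vdac1 and 0.181 for Vdac3. Vdac3 was also not called without young mice 5 and 6 (0.31, edgeR adjusted p 0.0712).

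**Figure D5:**
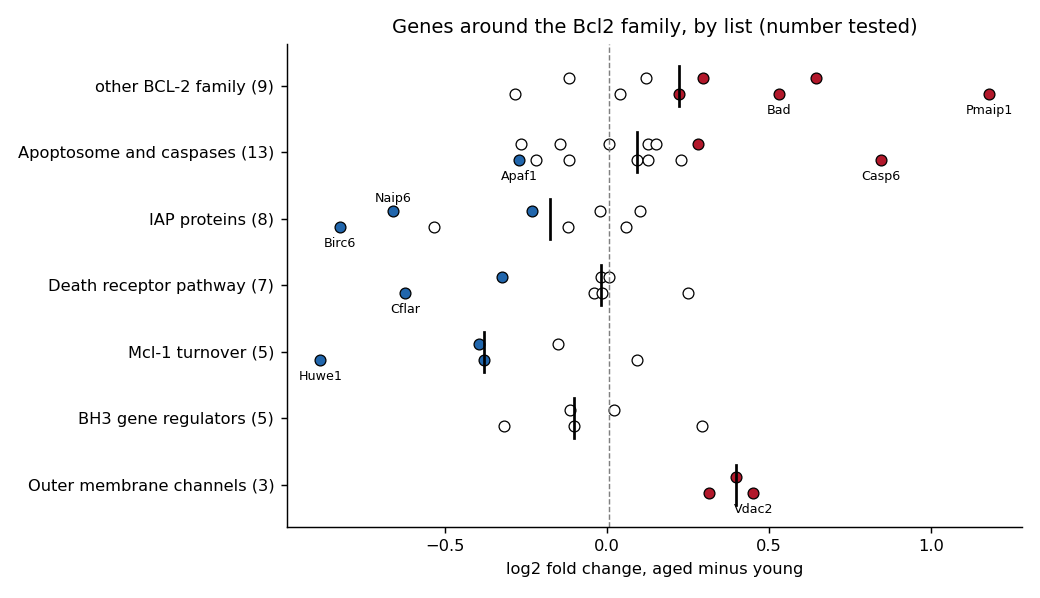
Log2 fold change (aged minus young, horizontal axis) of each tested gene of the 7 lists, with red for genes called higher, blue for genes called lower and white for genes not called. Black bars are list medians and the dashed line is the median of all genes tested (0.01); Pmaip1 at 1.18 lies farthest to the right and Huwe1 at -0.88 farthest to the left.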

How the data were processed

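The authors counted paired fragments over exons with featureCounts 2.0.0 (reverse-stranded, mapping quality of at least 60, both ends aligned to 1 chromosome) against a UCSC gene annotation of mm10, and deposited the raw counts for 12 libraries. The aligner is not given in the sources used here. Gene lengths are the exon bases of the same table, and coordinates are those of the table on mm10. Libraries were assigned to ages from the labels, which give 1 mouse per library.

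Members and lists were chosen with earlier results of these data known. Aged and young mice were compared with edgeR 4.0.16 in R 4.3.3 (filterByExpr, TMM factors, quasi-likelihood test, Benjamini-Hochberg adjustment over all genes tested, threshold 0.05). Standard errors were derived from the fold change and the F statistic. Members under the filter were compared by exact two-sided permutation of mean CPM over 924 regroupings. Alternatives used DESeq2 1.42.0, limma-voom (limma 3.58.1), other scalings and filters, and loess trends (span 0.3) on length or GC content. The fits were also run on simulated data, and the outcome is not given here. Named genes were the 10 members and, in each list, the largest rise, the largest fall, the smallest p and, up to 5, those not called; 1 gene this rule covers is not reported here. Likeness used log2 CPM with a prior count of 2.

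No pair of libraries of an age agreed within counting noise (chi-square per gene at least 1.68). The labels and headers name no batch. The sample numbers in the headers run on from the young to the first 3 aged libraries and break within the aged group; a batch that changed with age could not be told apart from it. Intervals on counts cover counting error only.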

Additional observations from a re-analysis of the deposited data

Results flagged for a closer look

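Single mice lay far from the others of their age in 4 of the 30 sets of 6 values examined, where about 1 in 20 is flagged by chance. Bcl2a1b was 4.23 CPM in aged mouse 1, against 1.63 CPM in the next. Bcl2a1d was 0.946 CPM in young mouse 10 (8 counts), against 0.325 CPM in the next. Bbc3 was 9.26 CPM in aged mouse 6, against 5.72 CPM in the next. The count ratio of Mcl1 to Pmaip1 was 91.9 in aged mouse 7, against 52.1 in the next.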

How the results depend on the processing

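The number of members called was 4 with all mice, 4 without each mouse in turn, and 3 to 5 under the other scalings, tests, filters and trends, with the 5th call being Bcl2a1b (DESeq2 and no filter, where 10 rather than 8 members were tested). Of all genes 37.2% were called by DESeq2, 28.2% with no filter and 49.3% with a minimum of 10 counts in every library. Bcl2, Bcl2l1 and Bak1 were called in every fit of all 12 mice or of 11. Signs changed for Bid without young mice 5 and 6 (-0.0106), Bbc3 with the GC trend (-0.0336), Mcl1 with the replicate block and length trend (0.0216) and Apaf1 with the length trend (0.0178). Among genes called in another fit only, they changed for Cyld (0.0186 with upper quartile factors, 0.3819 with the length trend, -0.0431 to 0.0185 without each mouse in turn), Usp9x (0.4222 with the length trend), Xiap (-0.0353 without TMM factors) and Bcl2l13 (-0.0426 without TMM factors, -0.0667 without young mice 5 and 6, -0.0123 to 0.0769 without each mouse in turn); the cause was not tested. Members under the filter with a permutation p under 0.05 numbered 2, 1 after thinning to the smallest library, 0 without young mice 5 and 6, and 0 to 2 without each mouse in turn. Groups are unequal once a mouse is left out, which by itself changes this p. Of the 3 ratios and 5 shares other than the ratios chosen after their values were seen, 0 did not overlap between ages, and 0 to 2 without each mouse in turn. The labels give both ages the numbers 1, 2, 5 and 6, but to different mice, and deviations of same-numbered mice correlated at -0.25 to -0.065. With the number as a replicate block in these 8 mice, 2 members were called (Bcl2 and Bak1), against 4 in the same mice with no block; 35.1% and 44.7% of all genes were called in these fits. The fold changes of the calls lost were close (Bcl2l1 0.30 and 0.31, Bax 0.57 and 0.58 with and without the block). With the block and the length trend edgeR called 0, with 3 at an unadjusted p under 0.05, and 16.5% of all genes. GC content came from GENCODE transcripts (94.4% of genes tested); that of the exons of the table was not run. Low counts limit Bcl2a1b and Bcl2a1d. The pair of young mice, the GC trend from transcripts and the summed copies were chosen after seeing the data.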
